A study of Mus musculus with 2 samples.

Results

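Timp3, Timp4, Htra3, Tnfaip6 and Col8a1 were the 5 matrix proteolysis and remodelling genes followed here, out of 379 genes on the panel. They were taken by name, counting decoded transcripts whose quality score reached 20. The tissue was back skin of C57BL/6 mice, shaved and depilated, and measured in place with Xenium In Situ, an imaging method that decodes individual RNA molecules of a chosen gene panel where they lie in the tissue. The mock group received PBS on the skin and the SspA+HDM group received SspA with HDM on the skin. The labels do not spell out either abbreviation. Both groups were taken at day 7, and no other agent or allele is named for either. With a single sample for each treatment, differences are given by their size, without a test and without a replicate, and 95% intervals reflect counting error alone. Each section held 2 strips of skin, which are parts of it and not replicates.

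The matrix of the skin is kept in balance by enzymes that cut it and by proteins that restrain or reorganise it. Tissue inhibitors of metalloproteinases (TIMPs) block matrix metalloproteinases. Timp3 encodes the member of that family that stays bound to the matrix and also blocks several ADAM and ADAMTS proteases, and Timp4 encodes a member with a more restricted range of tissues, fat and vessels among them. Htra3 encodes a secreted serine protease of the HtrA family. Tnfaip6 encodes TSG-6, a secreted protein that binds hyaluronan and moves heavy chains of the inter-alpha-inhibitor onto it, and that many stromal cells make in response to inflammatory cytokines. Col8a1 encodes a chain of type VIII collagen, a short-chain collagen best known from vessel walls and the basement membrane of the cornea.

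Timp3 and Tnfaip6 gave the widest contrast in the fibroblasts, with opposite directions, and the sequences just upstream of these 2 genes are shown for that reason. They are the 250 bases before the annotated start on the gene's own strand, written 5′ to 3′, from RefSeq on mouse build GRCm38.p6. All 5 genes had an entry. The Timp3 sequence lies at chr10:86300162-86300411 on the plus strand, and the Tnfaip6 sequence at chr2:52037863-52038112 on the plus strand. Capitals mark matches on either strand to 4 motifs: the TATA box, searched as TATAAA, the box of nuclear factor Y, searched as CCAAT, the GC box that SP1 binds, searched as GGGCGG, and the AP-1 site, searched as TGANTCA.
Timp3: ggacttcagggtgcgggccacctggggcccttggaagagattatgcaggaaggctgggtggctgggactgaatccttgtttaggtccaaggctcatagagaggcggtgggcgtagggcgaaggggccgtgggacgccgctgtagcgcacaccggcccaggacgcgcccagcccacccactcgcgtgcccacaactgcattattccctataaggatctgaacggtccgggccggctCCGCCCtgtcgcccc
Tnfaip6: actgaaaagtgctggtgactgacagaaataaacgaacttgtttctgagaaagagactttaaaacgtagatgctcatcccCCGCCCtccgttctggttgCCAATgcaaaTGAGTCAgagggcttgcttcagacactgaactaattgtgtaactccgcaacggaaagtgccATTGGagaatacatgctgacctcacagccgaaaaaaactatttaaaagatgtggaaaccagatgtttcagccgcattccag
G and C made up 65.6% of the Timp3 sequence and 44.4% of the Tnfaip6 sequence. The Timp3 sequence held 1 match, to GGGCGG read on the opposite strand. The Tnfaip6 sequence held a GGGCGG match on the opposite strand, a CCAAT on each strand, and a TGAGTCA that matches TGANTCA on both strands. Over the 32851 upstream sequences of the same length in the table, TATAAA was present in 12.4%, CCAAT in 33.8%, GGGCGG in 32.7% and TGANTCA in 6.75%. A match describes the letters in this window and shows no binding.

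The mock section held 15932 segmented cells and 2325265 gene transcripts inside them, and the SspA+HDM section 46142 cells and 7929474 transcripts, with 0 cell names in common. Levels are in CPM, a gene's share of all panel transcripts in the same cells times 1000000, and a ratio compares such shares. Detection differs between genes, and a level of 1 gene is compared only with levels of the same gene. Cells were clustered without the 5 genes, and clusters were called "X-like" from lists of marker genes. The label of whole dorsal skin was met by keratinocyte-like, hair follicle-like, fibroblast-like, adipocyte-like, endothelial and skeletal muscle-like cells in both sections. The SspA+HDM strips were thicker, and keratinocyte-like cells were 26.2% of clustered cells in mock and 35.7% in SspA+HDM. These epithelial cells, low in all 5 genes, held 29.4% of the panel transcripts of all segmented cells in mock and 50.7% of those in SspA+HDM.

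Over the whole section, Timp3, Timp4 and Htra3 were lower in SspA+HDM and Tnfaip6 was higher. Timp3 had a mock level of 8076 CPM and an SspA+HDM level of 4726 CPM, 1.71-fold lower (95% interval 1.68 to 1.74). Timp4 was at 1044 and 461 CPM, 2.26-fold lower (2.15 to 2.38). Htra3 was at 4142 and 2496 CPM, 1.66-fold lower (1.62 to 1.70). These 3 went the same way, and Tnfaip6 went the other, from 1129 to 1510.4 CPM, 1.34-fold higher (1.28 to 1.40). Col8a1 was sparse, with 171 and 497 transcripts, and its ratio of 0.852 had an interval that took in 1 (0.715 to 1.02).

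Counted at a 2-fold size, 0 of the 5 genes were higher and 1 of 5, Timp4, was lower. For comparison, 14.7% of the 346 panel genes that reached 100 transcripts were higher by that size and 12.7% were lower by it. The median log2 ratio was -0.73 over the 5 genes and 0.05 over those panel genes. Ranked from the lowest ratio, Timp4 was at place 28, Timp3 at 65, Htra3 at 67, Col8a1 at 131 and Tnfaip6 at 245. Without the epithelial classes and clusters, a setting chosen after the data were seen, Tnfaip6 reached 2.03-fold higher (1.94 to 2.12), Timp4 stood at a ratio of 0.647, Timp3 at 0.712 and Htra3 at 0.910. Per mm of strip length all 5 genes were higher, with ratios of 1.85 for Timp3, 1.40 for Timp4, 1.90 for Htra3, 4.22 for Tnfaip6 and 2.69 for Col8a1, against a median of 3.26 over the panel. Relative to that shift of the whole panel, Tnfaip6 alone of the 5 lay above the median. In these sums, fewer cells of a type and less RNA per cell cannot be told apart.

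Each strip was cut at the middle of its length into 2 segments to show the spread within a section. Timp3 stood at 7285, 8045, 8423 and 8440.0 CPM in the mock segments and at 3906, 4807, 4957 and 4949 in the SspA+HDM segments. The mock segments lay above all SspA+HDM segments, with a wide gap. Timp4 stood at 992, 1002, 969.6 and 1192 CPM in the mock segments and 411, 398, 505 and 512 in the SspA+HDM segments, again without overlap. Htra3 stood at 3953, 4142, 4099 and 4336 CPM and 1904, 2681, 2352 and 2766 CPM, also without overlap. Tnfaip6 stood at 802, 1302, 942 and 1413 CPM in mock and 1075, 1755, 1276 and 1706 in SspA+HDM. These overlapped, and in every strip the segment given second, on the same side of each image, held more of it than the segment given first. Col8a1 segments overlapped as well, from 45.1 to 105 CPM in mock and 46.2 to 89.5 in SspA+HDM. Segments did not overlap for 3 of the 5 genes and for 56.9% of the panel genes.

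**Figure D1:**
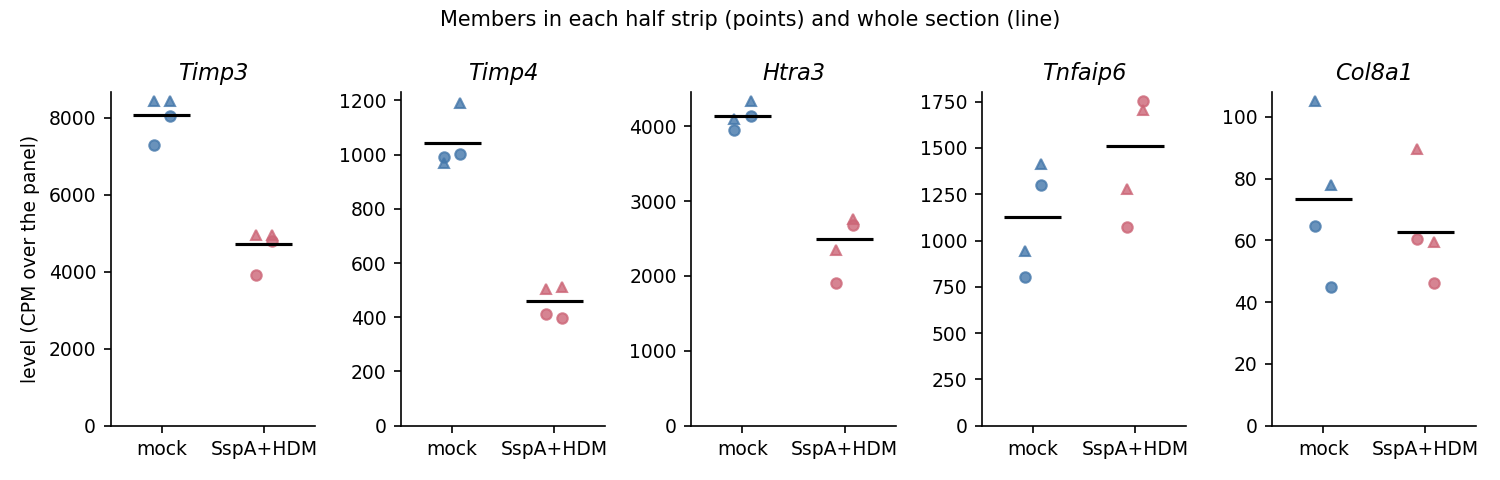
Level of each gene in CPM over the panel (vertical axes, from 0) in the 4 segments of each section; circles are segments of strip 1, triangles segments of strip 2 and the black line the whole section. Timp3, Timp4 and Htra3 segments do not overlap between mock and SspA+HDM, while Tnfaip6 and Col8a1 segments do.

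Timp3, the matrix-bound inhibitor, had its highest level in the lymphatic vessels of both sections. In lymphatic endothelial-like cells the mock level was 53004 CPM (interval 50036 to 56102) and the SspA+HDM level 62070.5 CPM (59122 to 65128). In blood endothelial-like cells it stood at 32152 and 26214 CPM, a ratio of 0.815 (0.760 to 0.876). Unnamed cluster 21, with Kcna1, Gatm, Prx and Sox2 among its leading genes, held 27565 and 34766 CPM, a ratio of 1.26 (1.18 to 1.34). In mock the order went from lymphatic to blood endothelial-like cells, cluster 21, fibroblast-like cells at 23151 CPM, and then mural or smooth muscle-like and adipocyte-like cells at 14476 and 13479.5 CPM, which overlapped each other by strip. In SspA+HDM the fibroblast-like cells, at 6682 CPM, stood in this order below the mural and adipocyte-like cells, at 9629.9 and 9358 CPM. A cycling-like cluster found nearly only in SspA+HDM (1922 cells, against 8 in mock), led by the follicle genes Lhx2, Tbx1 and Wif1 beside the division genes Cenpf, Stmn1 and Ube2c, named hair follicle-like at the coarser resolution of 1, held 30938 CPM and 16.8% of all Timp3 transcripts of that section. Hair follicle-like cells stood at 9047 and 9389 CPM in the mock strips and 6351 and 6731 in the SspA+HDM strips, a ratio of 0.710 (0.669 to 0.753). That direction was kept in 9 of 13 alternative settings and turned in the others. Their log2 ratios ran from -0.58 to 0.71, the highest with at least 40 transcripts per cell, against -0.49 in the main setting. Keratinocyte-like cells were low with 782 and 474 CPM.

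**Figure D2:**
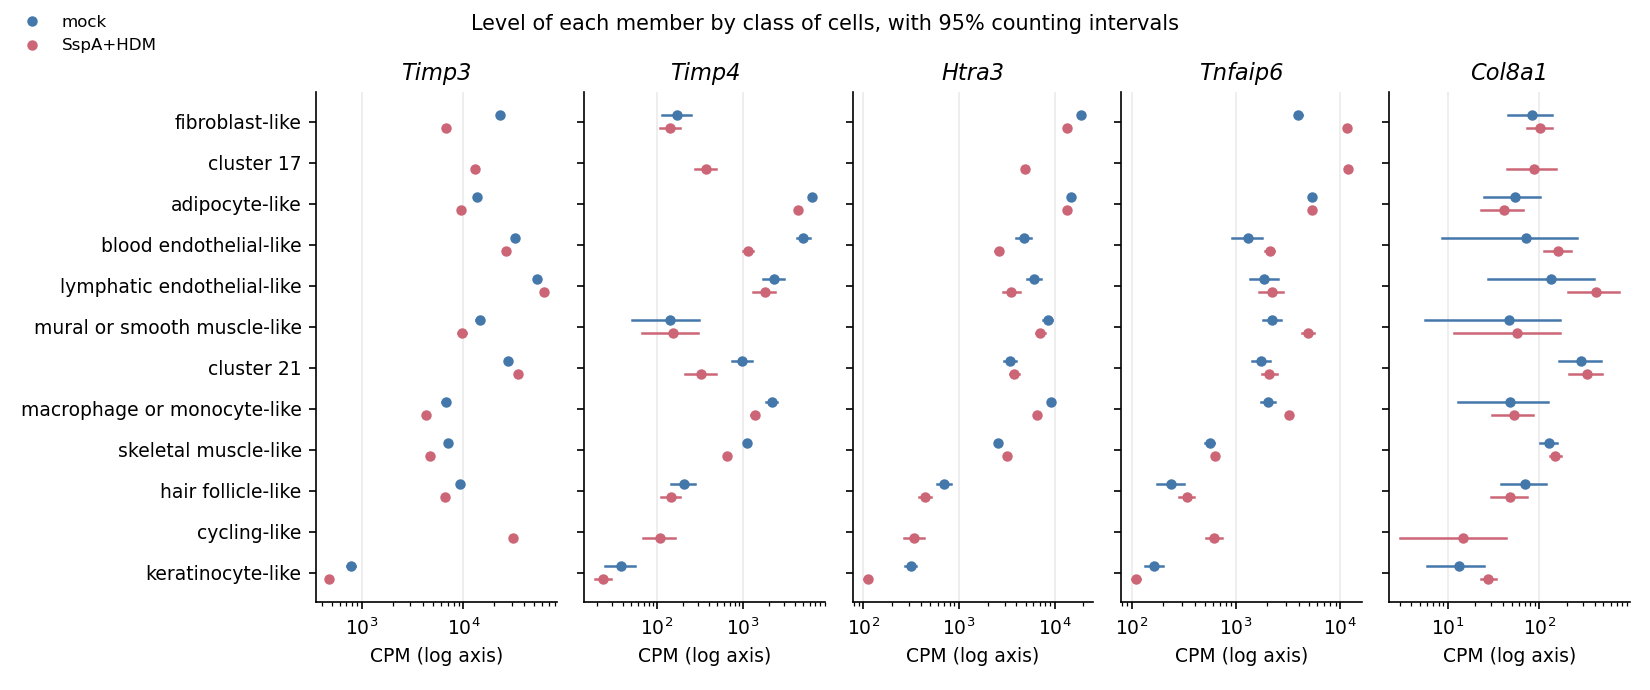
Level of each gene by class of cells, in CPM on a log axis, with blue points for mock, red points for SspA+HDM and lines for 95% counting intervals; classes with fewer than 50 cells in a section have no point there. Timp3 and Tnfaip6 lie apart in opposite directions in the fibroblast-like row, and Timp4 lies apart in the blood endothelial-like row.

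Of the classes compared, the lower Timp3 of the SspA+HDM section was widest in the fibroblast-like class. In fibroblast-like cells it stood at 22898 and 23381 CPM in the mock strips and 6298 and 7008 in the SspA+HDM strips, 3.46-fold lower (3.30 to 3.64). The class was made of cluster 1 (166 mock and 4490 SspA+HDM cells, with the mast cell gene Cpa3 and the macrophage gene Ms4a7 among its leading genes), cluster 24 (1072 and 139), cluster 34 (170 and 419) and cluster 26 at the deep face of the skin. Its make-up therefore differed between the sections. Cluster 26, led by Retnla, Igfbp6, C3 and Pi16, held the most Timp3 of the 4, at 37809.5 CPM over 738 mock cells and 17649 CPM over 301 SspA+HDM cells, a ratio of 0.467 (0.422 to 0.515). Without cluster 26 the class was at 11326 and 5914 CPM, 1.92-fold lower (1.78 to 2.06), under the 2-fold size. Cluster by cluster the ratio was 0.381 (0.319 to 0.459) in cluster 1, 0.849 (0.652 to 1.09) in cluster 24 and 0.924 (0.753 to 1.14) in cluster 34. The intervals of clusters 24 and 34 took in 1. Ratios this low were not particular to fibroblast clusters. In keratinocyte-like cluster 15 the ratio was 0.157 (0.124 to 0.200), from 127 and 160 transcripts. It was 0.451 in skeletal muscle-like cluster 12, 0.461 in macrophage or monocyte-like cluster 23 and 0.483 in adipocyte-like cluster 9. In muscle cluster 28 and adipocyte-like cluster 13 the intervals took in 1.

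Markers of neighbouring tissue moved with this result. The 6 skeletal muscle markers on the panel summed to 29579.5 CPM in fibroblast-like cells of mock and 11288 in SspA+HDM, and the 5 adipocyte markers to 14264 and 6818. No muscle or adipocyte marker was at 0. Without cluster 26 the muscle markers summed to 8230.5 and 3906 CPM, and within cluster 26 to 56046 and 116629, higher in SspA+HDM, where Timp3 was lower. Also within cluster 26, the 13 macrophage or monocyte markers summed to 65191 CPM in mock (1 of them at 0) and 119388 in SspA+HDM, and the 8 fibroblast markers to 341265 and 225850 CPM. Over the whole class the fibroblast markers summed to 325421 and 290927 CPM. The part of these markers in the Timp3 values was not tested.

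By depth, Timp3 in fibroblast-like cells was lower in SspA+HDM at every level where both sections could be compared. At 10 to 20% of the tissue thickness it stood at 7299 CPM in mock (interval 6128 to 8629) and 5121 in SspA+HDM (4242 to 6128), intervals that met. At 30 to 40% it stood at 13932 and 4671 CPM, and at 40 to 50% at 16799.5 and 6558. At 90 to 100% it stood at 37663 and 16735 CPM. The intervals of these 3 deeper steps did not overlap. At 50 to 60%, with 50 mock cells, the values were 12372 CPM (9090.2 to 16452) and 8389 (7641 to 9190.0), and their intervals overlapped. Within both sections the level at 90 to 100% was above that at 10 to 20%.

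**Figure D3:**
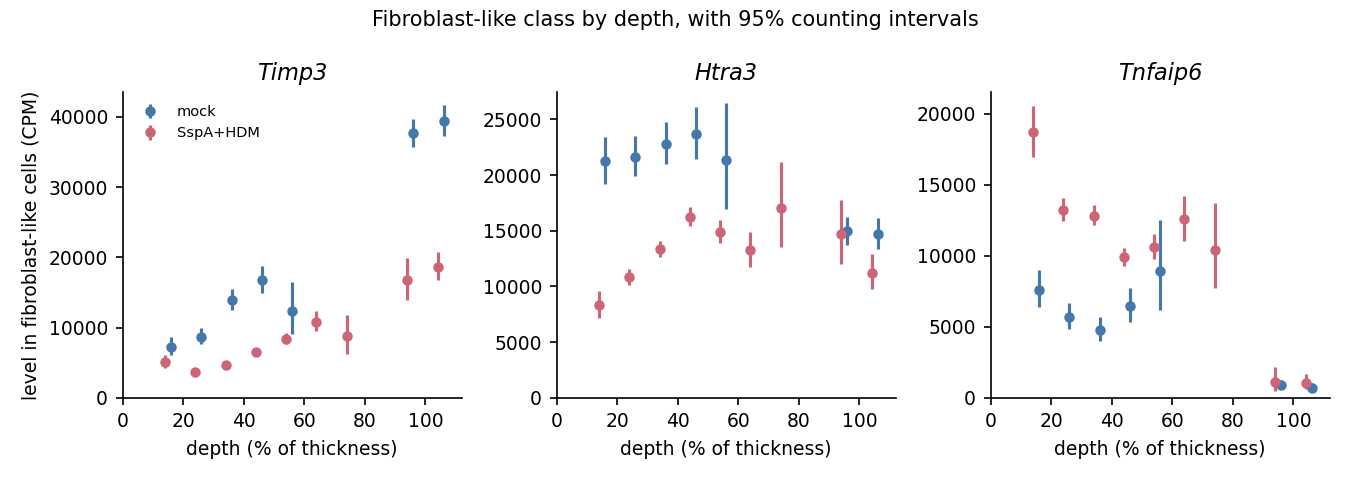
Level in CPM of Timp3, Htra3 and Tnfaip6 in fibroblast-like cells (vertical axes, from 0) by depth below the outer surface in percent of the local tissue thickness, with 95% counting intervals; points are steps of 10% with at least 50 cells. Timp3 and Htra3 lie lower and Tnfaip6 higher in SspA+HDM over the outer 50% of the thickness, and at 90 to 100% Tnfaip6 is at 874 CPM (mock) and 1088 CPM (SspA+HDM).

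Across all cells, Timp3 in mock had a first maximum of 15238 CPM at 40 to 50% of the thickness and a second at the deep face, with 22416 CPM at 90 to 100% and 31255 beyond it. In SspA+HDM the maximum of 14936 CPM lay at 60 to 70%, and the deep face held 4782 and 7229.5 CPM. The mock maximum at the deep face was above the SspA+HDM value there. Fibroblast-like cells made up 57.1% of mock cells at 90 to 100% and 3.32% of SspA+HDM cells, where skeletal muscle-like cells were 32.3% and 81.7%. The deepest 20% of the thickness held 27.9% of Timp3 transcripts in mock and 19.4% in SspA+HDM. How much of the layer under the muscle was cut with each section is not given in the labels, and it cannot be told apart from the treatment.

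Timp4, the inhibitor with the narrower range, had its highest level in the fat cells of both sections. Adipocyte-like cells held 43.7% of its transcripts in mock and 47.3% in SspA+HDM, at 6655 and 6142 CPM in the mock strips and 4451 and 4369.7 in the SspA+HDM strips. The ratio there was 0.691 (0.640 to 0.747), with every mock strip above both SspA+HDM strips. Skeletal muscle-like cells held the next share of Timp4, 33.5% and 23.0%, at a lower level over the class. It was 982 and 1263 CPM in the mock strips and 577 and 709.7 in the SspA+HDM strips, a ratio of 0.579 (0.525 to 0.638). Muscle cluster 28 held 404 of the 813 mock and 351 of the 840 SspA+HDM transcripts of that class, at 4335 and 2506 CPM. That was above adipocyte-like cluster 9, at 3361 and 2373 CPM, and below adipocyte-like cluster 13, at 8511 and 6979 CPM. The genes with the most similar profile over 63 cluster-by-section levels were Aqp7, the glycerol channel of fat cells (r = 0.92), Retn, which encodes resistin (r = 0.90), and Pck1, an enzyme of glycerol synthesis in fat (r = 0.88). These profiles share libraries, depth and neighbours, and the values are descriptions. In fibroblast-like cells Timp4 was sparse, with 29 and 57 transcripts.

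In the blood vessels Timp4 was far lower in SspA+HDM. Blood endothelial-like cells stood at 4949 and 5177 CPM in the mock strips and 972 and 1286 in the SspA+HDM strips, 4.43-fold lower (3.57 to 5.47), from 141 and 243 transcripts. Adipocyte markers moved with it: their summed level in the same cells was 73440 CPM in mock and 29024 in SspA+HDM, with none of the 5 at 0. The class also had the mural genes Rgs5 and Myh11 among its leading genes. Its 11 mural or smooth muscle markers summed to 139256 CPM in mock and 129575 in SspA+HDM. The 8 blood endothelial markers summed to 94947 and 153138 CPM. The part of these markers in the Timp4 values was not tested. The vessels also lay differently, with 263 of 400 mock cells and 758 of 2318 SspA+HDM cells within 30 µm of an adipocyte-like cell. Among those near fat Timp4 stood at 6755 and 2648 CPM, a ratio of 0.392 (0.312 to 0.493), and the adipocyte markers at 100863 and 70139.7 CPM. Farther from fat it stood at 1285 and 347 CPM from only 11 and 48 transcripts, a ratio of 0.270 (0.138 to 0.576). The ratio was under 0.5 on both sides of that distance, at levels that differed with it. With the sections clustered separately the whole-class log2 ratio was -0.88, under the 2-fold size, against -2.15. Of the genes compared in these cells 13.6% were lower by 2-fold or more and 14.2% higher, and of the 4 genes followed here that could be compared 1 was lower by that size and 0 higher.

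Lymphatic endothelial-like cells had Timp4 at 2314 CPM in mock (1728 to 3035) and 1793 in SspA+HDM (1322 to 2377), from 52 and 48 transcripts. These intervals overlapped. By depth, the Timp4 maximum lay where fat cells were most frequent. It was 4992 CPM at 50 to 60% of the thickness in mock, where adipocyte-like cells were 43.4% of cells, and 2927 CPM at 70 to 80% in SspA+HDM, where they were 35.4%. In absolute terms the median Timp4 transcript lay 126 µm below the surface in mock and 266 µm in SspA+HDM.

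**Figure D4:**
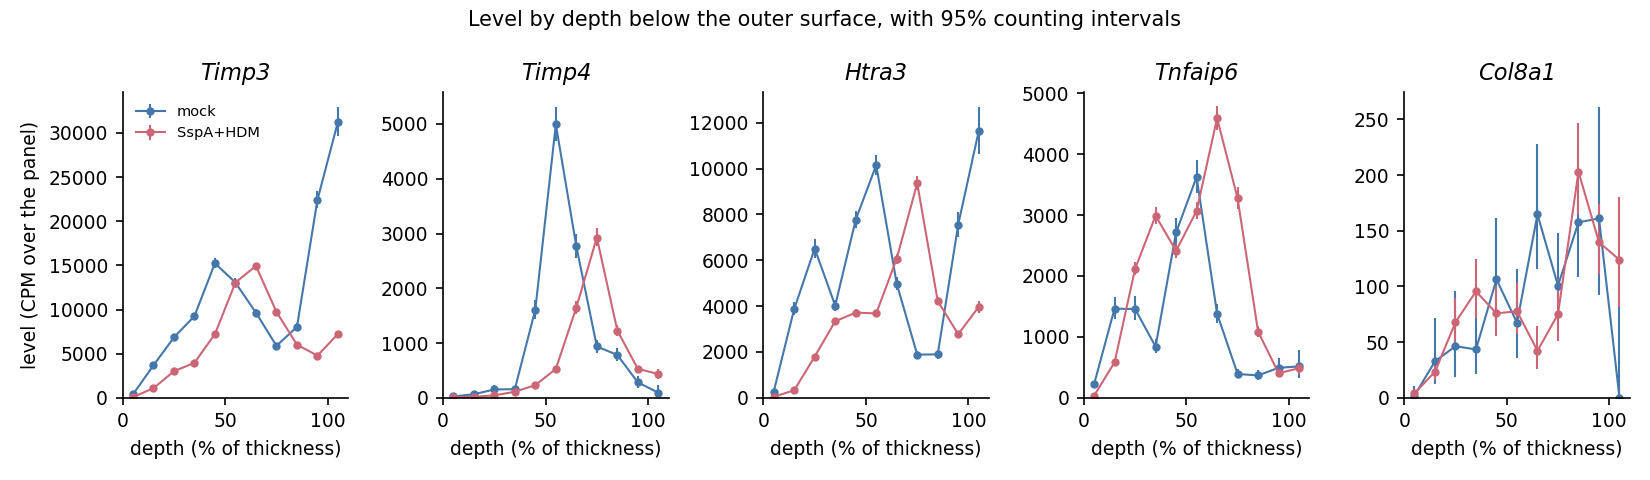
Level of each gene over all cells, in CPM over the panel (vertical axes, from 0), by depth below the outer surface in steps of 10% of the local tissue thickness, with 95% counting intervals; the last point lies beyond the deep edge. Timp4 has 1 maximum in each section, at 50 to 60% in mock and 70 to 80% in SspA+HDM, and Timp3 and Htra3 have a further maximum at the deep face of mock.

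Htra3, the only protease of the 5, had its highest levels in fibroblast-like and adipocyte-like cells. Fibroblast-like cells stood at 19335 and 18460.4 CPM in the mock strips and 13146 and 13691 in the SspA+HDM strips, a ratio of 0.713 (0.682 to 0.745). Adipocyte-like cells stood at 15587 and 14342 CPM in mock and 13684 and 13211 in SspA+HDM, a ratio of 0.899 (0.857 to 0.944). Cluster 9 of that class had the fibroblast markers Mfap5 and Igfbp6 among its leading genes. Htra3 stood there at 19659 and 17814 CPM, a ratio of 0.906 (0.852 to 0.964). In cluster 13, the rest of the class, it stood at 11491 and 7760 CPM, a ratio of 0.675 (0.623 to 0.732). The 8 fibroblast markers summed to 132593 and 153996 CPM in adipocyte-like cells and to 127488 and 123824 in macrophage or monocyte-like cells. Their part was not tested. Fibroblast-like cells were above adipocyte-like cells in mock, and in SspA+HDM the strips of both classes overlapped. Macrophage or monocyte-like cells, with 9235 and 6621 CPM, and mural or smooth muscle-like cells, with 8493 and 7113, followed in both sections. Macrophage or monocyte-like cells came first of these in mock and mural or smooth muscle-like cells in SspA+HDM, and their intervals overlapped in both sections. In blood endothelial-like cells Htra3 was at 4747 and 2603 CPM, a ratio of 0.548 (0.453 to 0.668). It was 0.01 on the log2 scale with the sections clustered separately, against -0.87. Skeletal muscle-like cells held 19.0% and 20.6% of the Htra3 transcripts and went the other way. They stood at 2537 and 3161 CPM, a ratio of 1.25 (1.18 to 1.32), without overlap of the strips. Over the nucleus alone the log2 ratio there was -0.04, against 0.32 over the whole outline.

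By depth, Htra3 in fibroblast-like cells was lower in SspA+HDM in every step of the outer 50% of the thickness that had 50 cells in both sections, and in some deeper steps. In the outer 50% mock had 22156 CPM and SspA+HDM 13199, a ratio of 0.596 (0.564 to 0.629). In the deeper 50% it was at 14980.4 and 14115 CPM, a ratio of 0.942 (0.872 to 1.02), whose interval took in 1. The deeper 50% compared unlike mixtures, since 717 of its 759 mock cells but 300 of its 1421 SspA+HDM cells belonged to cluster 26, and in mock that cluster had 14729 CPM against 22194 in the rest of the class. At 10 to 20% fibroblasts held 21258 CPM in mock and 8306 in SspA+HDM, the widest ratio of the steps with both sections. At 50 to 60% they held 21321 CPM in mock (16932 to 26501) and 14926 in SspA+HDM (13923 to 15982), still without overlap. At 90 to 100% they held 14964 and 14694 CPM, and beyond the deep edge 14708 (13400.2 to 16109) and 11249 (9748 to 12916). Within clusters 1, 24 and 34 the ratio was 0.715, 0.735 and 0.728, and within cluster 26 0.854. The genes most like Htra3 over the cluster profiles were Serpinf1, which encodes the secreted factor PEDF (r = 0.97), Dpt, which encodes the matrix protein dermatopontin (r = 0.96), and Ccdc80 (r = 0.95).

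Over all cells Htra3 had 2 maxima in mock below the outer dermis, 10151 CPM at 50 to 60% of the thickness and 11636 beyond the deep edge. In SspA+HDM it had a maximum of 9356 CPM at 70 to 80% and 3970.5 CPM beyond the deep edge. Its median transcript lay at 51.5% of the thickness in mock and 65.7% in SspA+HDM, deeper in the latter. In keratinocyte-like cells Htra3 was 2.83-fold lower (2.39 to 3.34), but from levels of 315 and 111 CPM. The mock level there was 0.0167 of that in its highest class. Over the nucleus alone the log2 ratio was -0.11, against -1.50 over the whole outline.

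Tnfaip6, the gene of the hyaluronan-binding protein TSG-6, was the one with a higher level in the SspA+HDM fibroblasts. Fibroblast-like cells stood at 4278 and 3688 CPM in the mock strips and 11367 and 11587 in the SspA+HDM strips, 2.90-fold higher (2.67 to 3.15), with no overlap. Without cluster 26 the class was at 6362 and 12195 CPM, 1.92-fold higher (1.76 to 2.09), just under the 2-fold size. Cluster 26 itself held little, 979 and 1361 CPM, so the deep-face fibroblasts that had the most Timp3 had the least Tnfaip6. Within cluster 1 the ratio was 1.85 (1.45 to 2.40), within cluster 24 1.46 (1.12 to 1.88) and within cluster 34 0.934 (0.658 to 1.34). The last interval took in 1.

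Of the depth steps, the level of Tnfaip6 in fibroblasts was highest at 10 to 20% in SspA+HDM, where keratinocyte-like cells were 80.9% of cells. At 10 to 20% of the thickness fibroblast-like cells held 7619 CPM in mock (6421 to 8975) and 18677 in SspA+HDM (16961 to 20519.7). At 20 to 30% they held 5697 and 13244 CPM, and at 30 to 40% 4774 and 12822. SspA+HDM was higher in each of these steps, with no overlap of the intervals. At 50 to 60% the intervals overlapped, at 8949.7 CPM (6198 to 12506) and 10622 (9779 to 11519). In the outer 50% as a whole the ratio was 1.99 (1.82 to 2.18). In the deeper 50% it was 7.12 (5.75 to 8.89), over 759 mock and 1421 SspA+HDM cells. Cluster 26, low in Tnfaip6, had 738 mock and 301 SspA+HDM cells, so the deeper 50% compared unlike mixtures. The 15 keratinocyte markers summed to 27813 and 45946 CPM in the class and the 13 macrophage or monocyte markers to 51342 and 47228, with none at 0, and their part in the Tnfaip6 values was not tested.

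Outside the fibroblasts, Tnfaip6 was 2-fold apart in mural or smooth muscle-like cells. Mural or smooth muscle-like cells stood at 2198 and 2261 CPM in the mock strips and 6197 and 3843 in the SspA+HDM strips, 2.20-fold higher (1.73 to 2.81), and without SspA+HDM strip 1 the log2 ratio was 0.79, under the 2-fold size. The 8 fibroblast markers summed to 172962 and 162735 CPM in these cells, and their part was not tested. Macrophage or monocyte-like cells stood at 2026 and 3221 CPM, a ratio of 1.59 (1.35 to 1.88). Adipocyte-like cells, the highest class in mock, stood at 5323 and 5349.6 CPM, and the interval of the ratio took in 1 (0.929 to 1.09). Their cluster 9, with fibroblast markers among its leading genes, stood at 9101 and 8387 CPM, a ratio of 0.922 whose interval took in 1. Their cluster 13 was lower in SspA+HDM, at 2631 and 1486 CPM, a ratio of 0.565 (0.473 to 0.674). Cluster 9 had 551 mock and 1466 SspA+HDM cells, and cluster 13 had 678 and 1209. The make-up of this class therefore differed between the sections. In blood endothelial-like cells the values were 1295 and 2098 CPM, a ratio of 1.62 (1.15 to 2.34), from 36 and 445 transcripts. Within 30 µm of an adipocyte-like cell the ratio was 1.41 (0.870 to 2.40), and farther away 1.30 (0.791 to 2.31). Both of these intervals took in 1.

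The dermal papilla, the stromal core of the hair follicle, could not be named, because the panel held only 2 of its markers, Sox2 and Wif1. Both were among the leading genes of unnamed cluster 17, with Acan, Lhx2 and Coch. It had 43 cells in mock and 1709 in SspA+HDM, so its levels are given for SspA+HDM and the sections were not compared. Tnfaip6 stood at 11966 CPM there (11398 to 12555), next to 11486 in fibroblast-like cells (11158 to 11821), with intervals that overlapped. Timp3 stood at 12888 CPM in cluster 17 and Htra3 at 4939, above and below their levels in fibroblast-like cells of that section (6682 and 13441 CPM). Timp4 was at 367 CPM. Cluster 17 held 13.9% of the Tnfaip6 transcripts of SspA+HDM. At 60 to 70% of the thickness, where Tnfaip6 over all cells reached its SspA+HDM maximum of 4588 CPM, cluster 17 was 15.6% of cells, adipocyte-like cells 20.6% and fibroblast-like cells 5.97%. In mock the maximum was 3624 CPM at 50 to 60%, among adipocyte-like cells (43.4%).

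The genes most like Tnfaip6 over the cluster profiles were Lum, which encodes the collagen-binding proteoglycan lumican (r = 0.95), Ccdc80 (r = 0.94) and Serpinf1 (r = 0.92). For Timp3 they were Pmp22, a myelin gene (r = 0.87), Fxyd6 (r = 0.87) and Serpinf1 (r = 0.85). Among the 5 genes themselves the closest pair was Htra3 and Tnfaip6 (r = 0.92), and the least alike was Timp4 and Col8a1 (r = 0.39).

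Col8a1, the collagen gene, was sparse, and the largest part of it lay in 1 cluster of muscle. Of its decoded transcripts, 56.6% passed the quality score of 20 in mock and 46.4% in SspA+HDM, against 79.4% and 78.1% over the panel, and the highest control feature of each section had 34 and 127 transcripts. Skeletal muscle-like cells held the most, 53.2% and 38.8% of the transcripts, at 98.4 and 152 CPM in the mock strips and 125 and 169 in the SspA+HDM strips. These overlapped, and the ratio was 1.19 (0.921 to 1.54). Cluster 12 of that class alone held 54 of its 91 mock and 152 of its 193 SspA+HDM transcripts, at 329.7 and 387 CPM, a ratio of 1.17 (0.855 to 1.63). The other muscle clusters together held 66.2 and 45.6 CPM, a ratio of 0.690 (0.431 to 1.11). By level, cluster 21 came first in mock with 286 CPM from 16 transcripts, and lymphatic endothelial-like cells in SspA+HDM with 411 CPM from 11, each with an interval that overlapped that of the class below it. In blood endothelial-like cells it had 2 and 34 transcripts, and in fibroblast-like cells 14 and 41, too few for a comparison at this depth. The 2-fold size in keratinocyte-like cells (2.12-fold higher, 1.08 to 4.75) came from 9 mock transcripts and levels of 13.2 and 27.9 CPM, and its log2 ratio was 0.51 without mock strip 1 and 2.18 without mock strip 2. Over the whole section the log2 ratio of Col8a1 kept its sign in only 10 of 16 alternatives. It turned, for example, without mock strip 2 (0.21) and per mm of strip length (1.43). Without the epithelial classes and clusters the ratio of Col8a1 was 1.09 (0.899 to 1.34). Its median transcript lay at 67.8% and 68.2% of the thickness, and the deepest 20% held 26.9% and 40.8%.

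Over all classes, 37 pairs of a gene and a class with at least 50 cells in both sections had 100 transcripts or more in a section. Of these, 3 were higher and 3 lower by 2-fold or more. The higher pairs were Tnfaip6 in fibroblast-like and mural or smooth muscle-like cells and Col8a1 in keratinocyte-like cells, and the lower pairs Timp3 in fibroblast-like cells, Timp4 in blood endothelial-like cells and Htra3 in keratinocyte-like cells. Over all panel genes 16.6% of such pairs were higher and 12.6% lower by that size. Both keratinocyte-like pairs lay under 0.25 of the gene's level in its highest class. Within the fibroblast-like class alone 26.9% of 201 genes were higher and 15.9% lower by 2-fold or more, so fibroblast differences of this size were common.

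Of a list of 105 other genes of matrix turnover, 15 were on the panel. Over the whole section 1 of these 15, Mmp8, which encodes the neutrophil collagenase, was at least 2-fold higher (18.9 to 50.1 CPM). It had 44 mock and 397 SspA+HDM transcripts, and the highest control feature had 34 and 127, so its mock value was near that floor. Lower by at least 2-fold were Pcolce2, an enhancer of procollagen processing (3.07-fold), and Mmp9, a gelatinase gene (2.59-fold). Bgn, the second highest, stood at a ratio of 1.89. The median of the 15 log2 ratios was 0.03, against 0.05 over the panel. In fibroblast-like cells 13 could be compared. Bgn and Aspn, which encode the small proteoglycans biglycan and asporin, were 2.59-fold (2.52 to 2.67) and 2.12-fold (2.04 to 2.21) higher. Mfap5, a microfibril gene, and Pcolce2 were 4.37-fold (3.98 to 4.79) and 2.55-fold (2.45 to 2.66) lower. Mfap5 was a leading gene of cluster 26 and Pcolce2 of cluster 24, both with more mock cells, so the make-up of the class moved with these folds. Within clusters 1, 24, 26 and 34 the ratio of Mfap5 was 0.367, 0.706, 0.870 and 1.89, and the intervals of clusters 24 and 34 took in 1. That of Pcolce2 was 0.502, 0.414, 0.545 and 0.657. Bgn was higher in each, with 1.46, 1.69, 1.68 and 1.52. Aspn was higher in cluster 1 alone (1.29), and lower in the others, with 0.789, 0.799 and 0.541. The median of the 13 log2 ratios was 0.46, and that of all genes compared in the class 0.43.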

How the data were processed

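Per the labels, 5-µm sections of formalin-fixed, paraffin-embedded skin were measured with Xenium In Situ, 1 section per treatment. The authors deposited, for each, every decoded transcript with its position, cell, nucleus overlap and quality score (the qv column, per the file headers), and the outlines of the cells. Positions were taken as µm. The decoding and segmentation software is not given in the sources used here. The score had not been used to filter the deposited rows, and 79.4% and 78.1% of gene transcripts reached 20.

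Levels are sums of a gene's transcripts inside outlines over the panel total. Cells with at least 20 transcripts were clustered jointly without the 5 genes (30 principal components, 15 neighbours, Leiden, leidenalg 0.10.2). Resolution 1 had been planned. Resolution 2 was taken after the data were seen, because at 1 the largest dermal cluster had leading genes of both fibroblasts and macrophages. To be named, a cluster needed 3 detected markers and a lead over every other marker list in its 10 leading genes, and 32 of 38 clusters were named. No doublet caller was run. Levels within outlines may include neighbours' transcripts. Sums have exact Poisson and ratios exact conditional binomial 95% intervals (scipy 1.17.1). Depth ran between the 2nd and 98th percentile of cells in 100-µm bins of each strip. The split of vessels at 30 µm from fat and the values within or without single clusters were chosen after the data were seen.

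The ratio, depth and clustering steps were tested on simulated data. The genes, lists and alternatives were chosen with earlier results of these data known. The text names all 5 genes, their 3 most similar profiles, and the 2 highest and 2 lowest other remodelling genes.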

Additional observations from a re-analysis of the deposited data

How the results depend on the processing

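The main counts were 51 panel genes at least 2-fold higher and 44 lower over the whole section, 0 and 1 of the 5 genes followed here, and 6 gene and class pairs at least 2-fold apart. The first 4 are given in that order below. Per segmented cell they were 71, 23, 0 and 0, and per mm of strip length 270, 5, 2 and 0, where the log2 ratio of Timp4 was 0.48, the reverse of -1.18. These scalings shift all genes alike. With each class at the same weight they were 46, 28, 0 and 0, without skeletal muscle classes 36, 63, 0 and 2, and without epithelial classes 81, 9, 1 and 0; for these the cause was not tested. Timp3, Timp4 and Htra3 were lower and Tnfaip6 higher in every other whole-section alternative run. The pairs 2-fold apart numbered 4 without pairs under 0.25 of the highest class, 4 to 7 with 1 strip left out, and 8 with the sections clustered separately. At resolutions 1 and 0.5, with the 5 genes in the clustering, and with at least 40 transcripts per cell, the fibroblast-like class kept 642 to 751 mock cells and 196 to 297 SspA+HDM cells, since the largest dermal cluster was then named macrophage or monocyte-like (with the 5 genes, unnamed), and Timp3 in it had log2 ratios of -1.08, -1.04, -0.92 and -0.99, with too few Tnfaip6 transcripts to compare. With the sections clustered separately Timp3 and Tnfaip6 were at -1.95 and 1.47. No paired analysis was possible because there was 1 sample per treatment. Depth limits Col8a1 in every class.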

Other observations

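Macrophage or monocyte-like cells, split at the same 30 µm from the nearest adipocyte-like cell after the data were seen, differed in Timp4 and Tnfaip6 by place. Near fat, 401 mock and 1687 SspA+HDM cells held Timp4 at 3431 and 2090.0 CPM, a ratio of 0.609 (0.507 to 0.734). The 5 adipocyte markers summed to 205592 and 155525 CPM in the same cells. Farther away, 458 and 1572 cells held 12 and 15 Timp4 transcripts, at 350.2 and 134 CPM, with adipocyte markers at 8931 and 5532 CPM. Timp4 and these markers were both lower in SspA+HDM at either distance. Tnfaip6 went with place in another way. Near fat it stood at 2178 and 2466 CPM, a ratio of 1.13 (0.916 to 1.41), and farther away at 1809.6 and 4513 CPM, a ratio of 2.49 (1.91 to 3.30). Timp3 near fat had a ratio of 0.520 (0.462 to 0.586), and farther away of 0.977, with an interval that took in 1. Intervals cover counting error only, and how much of each value came from neighbouring cells inside the outlines was not tested.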
